A study of Mus musculus with 29 samples.

Results

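The transcripts of the Myc, Max and Mxd network were followed in RNA-seq libraries of mouse bone marrow B cell progenitors. The 10 genes, Myc, Mycn, Max, Mxd1, Mxd3, Mxd4, Mxi1, Mnt, Mlx and Mga, were chosen by name for the protein family they encode. They were chosen with earlier results of these data known. All 10 were found among the 24732 entries of the tables aligned to mm9 and among the 25588 entries of those aligned to mm10. The cells were sorted from C57BL/6 mice and carried 1 of 3 genotypes: wild-type (3 libraries), Pax5(-/-), which lacks the B cell identity factor Pax5 (2 libraries), and Pax5(+/+) Meox2-cre (3 libraries). The Meox2-cre cells were pooled, came from mice at 3 weeks of age and served the study as controls with a Cre recombinase expressed throughout the embryo from the Meox2 locus. The age of the other mice is not given in the sources used here. A supplementary list of the study names the Meox2-cre mice as heterozygous for Pax5, whereas the sample labels, which are followed here, name them Pax5(+/+). By the study's methods, wild-type pro-B cells and Pax5-deficient progenitors were not sorted on the same surface proteins (Ly6D was used for the latter), so the genotypes also differ in their sort gate.

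Proteins of this network bind DNA in pairs. Myc or N-Myc pairs with Max on the E-box CACGTG and activates transcription, while the Mxd proteins, Mnt and Mga pair with the same Max and repress, the Mxd proteins and Mnt through the Sin3 corepressor with its histone deacetylases and Mga through a variant Polycomb complex. Mlx is a second shared partner, which takes up Mondo proteins that sense glucose metabolites as well as some Mxd proteins and Mnt. In B cell progenitors the network is best known for coupling IL-7 and pre-B cell receptor signals to growth and division.

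The same E-box occurs in front of some of the network's own genes. RefSeq promoter windows on GRCm38.p6, which run from 250 bases before to 50 bases after a start site, were matched to 9 of the 10 members, that is to all but Myc. The letters CACGTG, which read the same on both strands, were found in the windows of 4 of these 9 genes, Max, Mxd4, Mnt and Mlx. They occur in 7.15% of all 32851 windows, and 8.09% of the 27025 genes in the table have at least 1 such window. No CACGTG was found in the windows of Mycn, Mxd1, Mxd3 and Mga or in the 3 windows of Mxi1. The 4 windows that hold the E-box are shown with that of Mxd3, the member with the largest difference between genotypes, from 250 bases before to 10 bases after the start site, 5′ to 3′ in the direction of transcription and with CACGTG in capitals:
Max: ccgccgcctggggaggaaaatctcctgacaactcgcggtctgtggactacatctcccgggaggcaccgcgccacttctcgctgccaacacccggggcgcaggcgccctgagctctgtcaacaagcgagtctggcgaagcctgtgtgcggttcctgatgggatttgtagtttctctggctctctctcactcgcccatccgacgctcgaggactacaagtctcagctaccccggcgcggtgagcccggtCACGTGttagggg
Mlx: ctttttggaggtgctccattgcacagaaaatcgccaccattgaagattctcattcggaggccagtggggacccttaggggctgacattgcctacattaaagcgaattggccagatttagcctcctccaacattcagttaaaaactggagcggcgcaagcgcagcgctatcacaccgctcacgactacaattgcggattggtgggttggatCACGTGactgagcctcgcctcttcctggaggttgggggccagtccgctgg
Mnt: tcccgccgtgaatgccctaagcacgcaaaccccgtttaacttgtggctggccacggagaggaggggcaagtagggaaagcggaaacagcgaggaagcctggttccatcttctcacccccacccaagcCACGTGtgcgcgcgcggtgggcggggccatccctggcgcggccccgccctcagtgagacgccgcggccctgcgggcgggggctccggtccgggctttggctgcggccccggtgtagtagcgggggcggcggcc
Mxd4: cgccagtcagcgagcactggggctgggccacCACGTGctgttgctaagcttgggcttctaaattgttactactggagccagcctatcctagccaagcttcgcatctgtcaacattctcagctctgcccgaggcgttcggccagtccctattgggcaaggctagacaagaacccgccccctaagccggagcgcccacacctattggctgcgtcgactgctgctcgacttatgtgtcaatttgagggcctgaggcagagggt
Mxd3: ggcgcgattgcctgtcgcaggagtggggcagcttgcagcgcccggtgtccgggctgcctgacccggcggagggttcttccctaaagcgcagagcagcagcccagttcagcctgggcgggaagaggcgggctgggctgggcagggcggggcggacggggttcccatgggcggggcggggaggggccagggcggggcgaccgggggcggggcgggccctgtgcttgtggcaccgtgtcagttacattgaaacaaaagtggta

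The E-box begins 3 bases before the start site of Max (chr12:76962239-76962498, minus strand), 40 bases before that of Mlx (chr11:101087040-101087299, plus strand), 123 bases before that of Mnt (chr11:74830674-74830933, plus strand) and 219 bases before that of Mxd4 (chr5:34187701-34187960, minus strand). The window of Mxd3 spans chr13:55329722-55329981 on the minus strand. The 4 genes with an E-box did not move in 1 direction between the genotypes, as their values show: Mnt was higher and Mlx lower in Pax5(-/-) cells, and Max and Mxd4 did not pass the test. A match of these letters is a description of the sequence and was not tested as a binding site.

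Expression was measured as TPM, a transcript abundance that is corrected for gene length and scaled by the authors to the same sum in each library. The depth in reads is therefore unknown, and the number of libraries limits the precision. The ratio between low TPM values placed the depth of the 5 mm9 libraries between 0.855 and 1.54 times that of wild-type library 1 and that of the Meox2-cre libraries within 1.03 times of each other. Pax5 lay between 342 and 391 TPM in wild-type and between 39.1 and 43.0 TPM in Pax5(-/-) libraries, so these libraries matched their labels. The source of the Pax5 transcripts that remained in Pax5(-/-) libraries was not tested. Meox2-cre libraries had between 376 and 397 TPM. Their tables were made with other software, so this level cannot tell Pax5(+/+) from heterozygous mice. The pro-B cell markers Vpreb1 and Igll1, which encode the surrogate light chain, and Ebf1, which encodes a B lineage factor, were detected in every library. All were lower in Pax5(-/-) libraries. Vpreb1 had 1914 to 2147 TPM in wild-type and 351 and 322 TPM in Pax5(-/-) libraries. Igll1 had 2671 to 2974 TPM in wild-type and 642 and 572 TPM in Pax5(-/-) libraries. Kit, Ptprc and Il7r, also pro-B cell markers, had higher means in Pax5(-/-) cells but did not pass the test described below. Ebf1 lay between 378 and 497 TPM in wild-type, at 175 and 147 TPM in Pax5(-/-) and between 333 and 353 TPM in Meox2-cre libraries. Genotypes were compared with limma on log2(TPM + 0.5) over 12066 genes, namely those whose mean exceeded 1 TPM in wild-type or Pax5(-/-) cells, and p-values were adjusted over all of them. A log2 change is that of Pax5(-/-) minus wild type with its standard error (SE), on the log2(TPM + 0.5) scale, which understates changes of low genes. No label says that the libraries came from separate mice, so the p-values measure the spread between these libraries. Fits without a Pax5(-/-) library leave 1 in that genotype, and far fewer of all genes tested passed in them. A call lost in such a fit is therefore not particular to its gene. In sorted cells in bulk, a smaller share of cells that express a gene and less of its RNA per cell cannot be told apart.

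All 10 members passed the filter on low values. In Pax5(-/-) progenitors, Myc and Mnt were higher, Mxd3 and Mlx were lower, and the other 6 did not pass an adjusted p-value of 0.05. These 4 of 10 members that passed stand beside 37.1% of all genes tested. The 2 members that were lower stand beside 21.5% of all genes tested that were lower by the same rule, and the 2 that were higher stand beside 15.6%. With the thresholds of the study's methods, which also ask that a gene differ more than 3-fold and exceed 5 TPM on average in 1 of the genotypes, 1 member was lower (3.15% of all genes tested), namely Mxd3, and 0 were higher (2.71% of all genes tested). At more than 2-fold, Myc was added as the 1 member that was higher (5.22% of all genes tested), beside Mxd3 as the 1 that was lower (6.24%). Pax5(-/-) libraries lay below every wild-type library for 4 members, Mxd1, Mxd3, Mxi1 and Mlx (37.4% of all genes tested), and above for 2, Myc and Mnt (26.1%). The median log2 change was -0.15 over the 10 members and -0.12 over all genes tested. Rescaling the libraries by median ratios moved the median of all genes by more than 0.1, to -0.01, and that of the members to -0.04. By either scaling, 6 of the 10 members lay below the median of all genes. The share of higher genes among all that passed was 42.1%, and 51.1% after rescaling by median ratios.

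**Figure D1:**
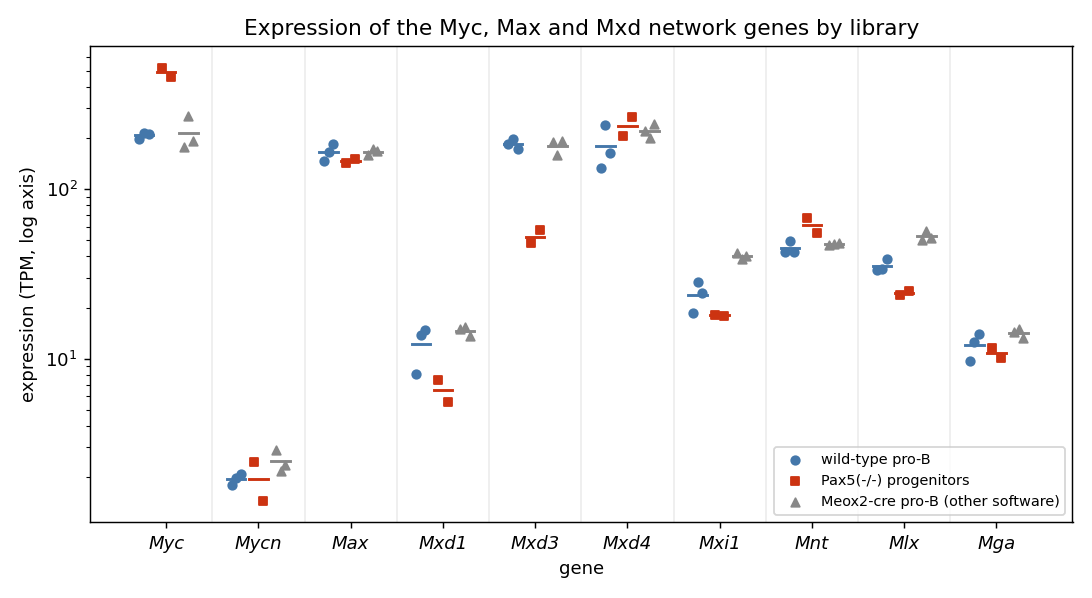
Expression of the 10 network genes in each library (points, TPM on a log axis) with the mean of each group (line) for 3 wild-type, 2 Pax5(-/-) and 3 Meox2-cre libraries. Myc lies at 456 and 520.3 TPM in Pax5(-/-) libraries against 197 to 214 TPM in wild type, and Mxd3 at 47.9 and 56.98 TPM against 172 to 198 TPM; the Meox2-cre tables were made with other software and are shown side by side only.

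Myc (chr15:61816946-61821929 on mm9, plus strand), the growth-promoting activator of the network, had the highest mean of the members in wild-type and in Pax5(-/-) cells. Mxd4 stood above Myc in wild-type library 2, at 239 TPM. The TPM of Myc was 197, 214 and 212 in the wild-type libraries and 520.3 and 456 in the Pax5(-/-) libraries. Both Pax5(-/-) values lay far above all wild-type values, and the libraries did not overlap. Myc was 2.35-fold higher in Pax5(-/-) cells, a log2 change of 1.23 (SE 0.10, 95% interval 0.99 to 1.46, adjusted p = 0.000133). Meox2-cre libraries had 177, 269 and 193 TPM, of which the second stood above both others and the highest wild-type value. None of the 3 reached the Pax5(-/-) range.

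Mycn (chr12:12942902-12948720, minus strand), which encodes the related activator N-Myc, was the least abundant member in every group. The wild-type libraries had 1.80, 1.96 and 2.07 TPM, and the Pax5(-/-) libraries had 2.45 and 1.45 TPM, 1 above and 1 below all wild-type values. The log2 change of -0.03 (SE 0.27, 95% interval -0.66 to 0.61, adjusted p = 0.95) leaves its direction undetermined, and the sign turned positive when the libraries were rescaled (0.06 by median ratios, 0.11 by quantile normalization). The Meox2-cre libraries had 2.89, 2.18 and 2.36 TPM.

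Other Myc family genes were examined in a list of wider network genes that also holds the Mondo genes. Bmyc, a rodent gene whose product resembles the amino-terminal part of Myc and lacks the part that pairs with Max, had 78.0, 85.1 and 64.0 TPM in wild-type, 388 and 429 TPM in Pax5(-/-) and 81.7, 71.7 and 69.6 TPM in Meox2-cre libraries. All Pax5(-/-) values lay far above all others, with a log2 change of 2.43 (SE 0.14, adjusted p = 2.43e-05). Mycl, which encodes L-Myc, rose from between 0.326 and 0.490 TPM to 0.805 and 2.30 TPM. With a log2 change of 1.07 (SE 0.38) it did not pass (adjusted p = 0.061). Its wild-type mean was 0.414 TPM, so it was tested only through its Pax5(-/-) mean. Without wild-type library 1, 2 or 3 it did not pass (0.997, 1.08 and 1.13, adjusted p = 0.0963, 0.122 and 0.0961). The log2 change was 1.62 without Pax5(-/-) library 1, where Mycl was lower. Without Pax5(-/-) library 2, Mycl fell below the filter.

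Max (chr12:78038256-78063235, minus strand), the partner that all activators and most repressors of the network share, was among the 4 most abundant members in each group. Wild-type libraries had 146, 166 and 184 TPM, and Pax5(-/-) libraries had 142 and 151 TPM, so the genotypes overlapped. The log2 change of -0.17 (SE 0.12, 95% interval -0.44 to 0.11, adjusted p = 0.30) did not pass, and its interval excludes a change of 2-fold in either direction. Meox2-cre libraries had 158, 171 and 167 TPM. Among all groups Max thus stayed between 142 and 184 TPM, a narrower range than those of Myc and Mxd3.

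Mxd3 (chr13:55426529-55431119, minus strand) encodes the Mxd repressor that is best known from proliferating cells, whereas Mxd1, Mxi1 and Mxd4 are best known from cells that stop dividing. Its TPM was 183, 198 and 172 in wild-type, 190.3, 158 and 192 in Meox2-cre and 47.9 and 56.98 in Pax5(-/-) libraries. Both Pax5(-/-) values were far below all others, and the 2 groups of Pax5-expressing cells overlapped. Mxd3 was 3.50-fold lower in Pax5(-/-) cells, a log2 change of -1.81 (SE 0.12, 95% interval -2.08 to -1.53, adjusted p = 4.54e-05). Mxd3 shares 104 exonic bases, 5.00% of its exonic length, with Prelid1, which is transcribed from the opposite strand on mm9. The reads were counted at default settings, which do not separate strands, and its table entry carries a mark for overlap, so reads from the shared stretch cannot be assigned. Prelid1 had 513 TPM in wild-type and 400.0 TPM in Pax5(-/-) cells, a log2 change of -0.36 (SE 0.11, adjusted p = 0.0336), smaller than that of Mxd3.

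Mxd1 (chr6:86597038-86619153, minus strand), which encodes a repressor that replaces Myc on Max in differentiating cells, had 8.07, 13.9 and 14.7 TPM in wild-type, 7.50 and 5.54 TPM in Pax5(-/-) and 14.9, 15.4 and 13.6 TPM in Meox2-cre libraries. The Pax5(-/-) values lay below all others, but wild-type library 1 stood nearer to them than to the rest of its group. The log2 change of -0.82 (SE 0.28, 95% interval -1.49 to -0.16) did not pass (adjusted p = 0.0561). Without wild-type library 1, Mxd1 was lower with a log2 change of -1.09 (adjusted p = 0.00693). That fit also raised the number of all genes that were lower from 2596 to 3233. Without wild-type library 2 or 3, Mxd1 did not pass (-0.71 and -0.67, adjusted p = 0.156 and 0.122).

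Mxi1 (chr19:53384996-53450300, plus strand), the Mxd family member also called Mxd2, had 18.6, 28.2 and 24.2 TPM in wild-type and 18.1 and 17.9 TPM in Pax5(-/-) libraries. Here too wild-type library 1 was next to the Pax5(-/-) libraries, which lay below all wild-type libraries by a small margin. The log2 change of -0.36 (SE 0.19, 95% interval -0.81 to 0.08, adjusted p = 0.17) did not pass, while without wild-type library 1 it was -0.52 (adjusted p = 0.0272). Without wild-type library 2 or 3 it did not pass (-0.23 and -0.34, adjusted p = 0.388 and 0.252). Meox2-cre libraries had 42.0, 38.6 and 40.2 TPM, above every mm9 library. Whether this reflects the animals or the other genome build, annotation and aligner cannot be told apart. Mxi1 also shares 194 exonic bases (3.45%) with the predicted gene Gm10197 on the opposite strand.

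Mxd4 (chr5:34516536-34530369, minus strand) was by TPM the most abundant Mxd gene in Pax5(-/-) cells. It had 134, 239 and 163 TPM in wild-type, 206 and 266 TPM in Pax5(-/-) and 221, 199.6 and 242 TPM in Meox2-cre libraries. The wild-type libraries spread over a range that held 1 of the Pax5(-/-) values, so the genotypes overlapped. The log2 change of 0.44 (SE 0.23, 95% interval -0.11 to 0.98, adjusted p = 0.18) did not pass, but without wild-type library 2 it was 0.67 (adjusted p = 0.0289). Without wild-type library 1 or 3 it did not pass (0.25 and 0.39, adjusted p = 0.376 and 0.312).

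Wild-type library 1, which was low in Mxd1, Mxi1 and Mxd4, was also low in erythroid and myeloid markers. The summed level of 6 erythroid markers was 84.0 TPM in this library, 178 and 212 TPM in the other wild-type libraries, 63.4 and 9.43 TPM in Pax5(-/-) and 225 to 322 TPM in Meox2-cre libraries. The mean exceeded 1 TPM for 6 of 6 erythroid markers in wild-type and for 5 of 6 in Pax5(-/-) cells. The sum of the 7 myeloid markers matched in the mm9 tables was 45.9 TPM in wild-type library 1, 252 and 192 TPM in the others, and 55.4 and 83.7 TPM in Pax5(-/-) libraries, with a mean above 1 TPM for 7 of 7 in both genotypes. Elane and S100a8 were listed at 0 in Pax5(-/-) library 1, whereas Mpo was higher in both Pax5(-/-) libraries (37.8 and 42.1 TPM) than in all wild-type libraries (11.1 to 34.5 TPM) but did not pass (log2 change 1.02, adjusted p = 0.0811). In Meox2-cre libraries the sum of 8 myeloid markers lay between 442 and 1223 TPM. The part of these cells in the values of Mxd1, Mxi1 and Mxd4 was not tested.

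Markers of other lymphoid and dendritic cells differed between the genotypes as well, in part in opposite directions. The sum of 7 T cell markers was 13.2, 8.97 and 8.85 TPM in wild-type and 7.26 and 9.77 TPM in Pax5(-/-) libraries, with a mean above 1 TPM for 1 and 2 of the 7. Within it Cd4 was higher (0.534 to 4.92 TPM, log2 change 2.38, adjusted p = 0.000865) and Cd5 lower (8.83 to 2.97 TPM, -1.38, adjusted p = 0.00664), while Cd3e and Cd8b1 were listed at 0 in both Pax5(-/-) libraries. The sum of 7 NK and innate lymphoid markers was 9.81, 20.2 and 15.4 TPM in wild-type, 22.7 and 31.1 TPM in Pax5(-/-) and 21.1 to 23.6 TPM in Meox2-cre libraries, with a mean above 1 TPM for 3 of 7 in wild-type and 4 of 7 in Pax5(-/-) cells. Nkg7 (2.30, adjusted p = 0.00488) and Gzma (2.27, adjusted p = 0.00361) were higher, Klrb1c (-1.69, adjusted p = 0.0347) and Prf1 (-1.84, adjusted p = 0.0136) were lower, and Ncr1 was listed at 0 in both Pax5(-/-) libraries. The sum of 6 plasmacytoid dendritic markers was 85.9, 126 and 106 TPM in wild-type, 129 and 183 TPM in Pax5(-/-) and 127 to 144 TPM in Meox2-cre libraries, with a mean above 1 TPM for 2 of 6 in wild-type and 3 of 6 in Pax5(-/-) cells. Most of this sum was Bst2, at 83.0, 123 and 103 TPM in wild-type and 120 and 163 TPM in Pax5(-/-) libraries. Bst2 overlapped between the genotypes and did not pass (0.46, adjusted p = 0.10). Pacsin1 (1.92, adjusted p = 0.00225) and Siglech (2.20, adjusted p = 0.0311) were higher, while Klk1 was listed at 0 in both Pax5(-/-) libraries. Siglech was uneven between the Pax5(-/-) libraries, at 1.79 and 9.06 TPM. Cd4, Gzma and Siglech had wild-type means of 0.534, 0.523 and 0.600 TPM, so they passed the filter on low values only through Pax5(-/-) cells. The filter thus selected these genes in the direction of their calls. The part of other lymphoid and dendritic cells in the changes of the network genes was not tested.

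Mnt (chr11:74644422-74659227, plus strand), which encodes the broadly expressed repressor that opposes Myc in dividing cells, had 42.4, 49.2 and 42.4 TPM in wild-type, 67.4 and 54.7 TPM in Pax5(-/-) and 46.4, 47.5 and 47.9 TPM in Meox2-cre libraries. Both Pax5(-/-) libraries lay above all others, library 1 by more than library 2. Mnt was 1.36-fold higher in Pax5(-/-) cells, a log2 change of 0.44 (SE 0.14, 95% interval 0.12 to 0.76, adjusted p = 0.0391). This call was close to the threshold and was lost when either Pax5(-/-) library (0.29, adjusted p = 0.291, without library 1; 0.59, adjusted p = 0.0847, without library 2) or wild-type library 1 or 3 was left out (0.41, adjusted p = 0.0722; 0.41, adjusted p = 0.0741).

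Mlx (chr11:100948591-100953521, plus strand), the second shared partner, had 33.3, 33.6 and 38.8 TPM in wild-type and 23.5 and 25.2 TPM in Pax5(-/-) libraries. The genotypes did not overlap, and Mlx was 1.43-fold lower in Pax5(-/-) cells, a log2 change of -0.52 (SE 0.13, 95% interval -0.83 to -0.21, adjusted p = 0.0182). Without Pax5(-/-) library 1 or 2 the log2 change was -0.47 (adjusted p = 0.15) or -0.57 (adjusted p = 0.116). Meox2-cre libraries had 50.1, 56.8 and 51.1 TPM, above all mm9 libraries, which again cannot be told apart from the other processing. Mlx shares 385 exonic bases, 19.3% of its exonic length, with Psmc3ip on the opposite strand, and its mm9 entry carries the overlap mark as well. Psmc3ip had 74.0 TPM in wild-type and 74.2 TPM in Pax5(-/-) cells (log2 change 0.00, SE 0.10, adjusted p = 0.979), and the part of shared reads in the value of Mlx was not tested.

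The Mondo partner of Mlx was lower as well. Mlxip, which encodes the glucose-responsive MondoA, had 57.5, 82.1 and 95.6 TPM in wild-type, 44.4 and 38.2 TPM in Pax5(-/-) and 76.3 to 88.2 TPM in Meox2-cre libraries. Both Pax5(-/-) libraries were below all others, with a log2 change of -0.89 (SE 0.21, adjusted p = 0.0138). Txnip, a standard MondoA-Mlx target that restrains glucose uptake, had 96.6, 162 and 169 TPM in wild-type and 78.1 and 83.2 TPM in Pax5(-/-) libraries, a log2 change of -0.77 (SE 0.23, adjusted p = 0.0336). Wild-type library 1 was again the lowest of its group for both genes. Mlxipl, the other Mondo gene, reached at most 0.268 TPM in an mm9 library, and Arrdc4, the other Mondo target of the list, at most 0.345 TPM, so both were below the filter and not tested. The call of Mlxip was lost without Pax5(-/-) library 1 (-0.996, adjusted p = 0.0856) or 2 (-0.78, adjusted p = 0.159), and that of Txnip without either of these (-0.73 and -0.82, adjusted p = 0.207 and 0.188) or without wild-type library 2 or 3 (-0.66 and -0.63, adjusted p = 0.10 and 0.0842).

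Mga (chr2:119722964-119795317, plus strand), which encodes a large Max partner found in a Polycomb complex, had 9.68, 12.5 and 14.0 TPM in wild-type, 11.6 and 10.1 TPM in Pax5(-/-) and 14.4, 14.9 and 13.2 TPM in Meox2-cre libraries. The Pax5(-/-) values lay within the wild-type range, and the log2 change of -0.14 (SE 0.20, 95% interval -0.61 to 0.33, adjusted p = 0.62) did not pass.

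**Figure D2:**
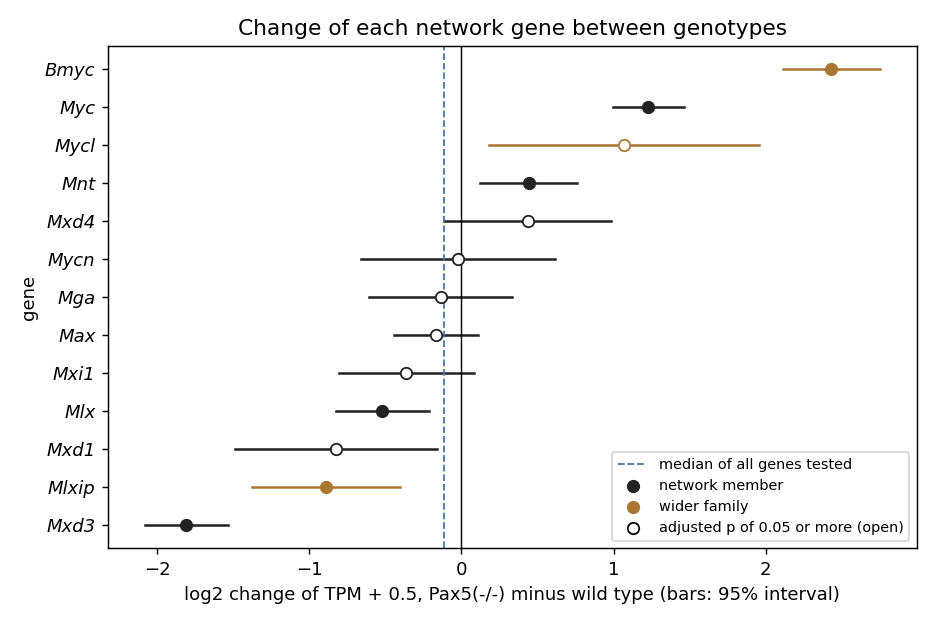
Log2 change of TPM + 0.5 between Pax5(-/-) and wild-type cells (points) with its 95% interval from limma (bars) for the 10 members and the 3 tested genes of the wider family, where filled points have an adjusted p-value below 0.05 and the dashed line is the median of all genes tested, -0.12. Bmyc at 2.43 and Myc at 1.23 lie at the upper end and Mxd3 at -1.81 at the lower end.

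TPM is scaled by gene length, so the members can also be ordered within a group. In wild-type cells the means fell from Myc at 208 ± 8.97 TPM (SD, n = 3) over Mxd3 at 184 ± 12.6, Mxd4 at 178 ± 54.2 and Max at 165 ± 18.6 TPM, and neighbours among these 4 genes overlapped. A clear step followed, to Mnt at 44.7 ± 3.93, Mlx at 35.2 ± 3.08 and Mxi1 at 23.7 ± 4.82 TPM, which did not overlap with their neighbours. Mxd1 at 12.2 ± 3.59 TPM and Mga at 12.1 ± 2.19 TPM overlapped, and Mycn came last at 1.95 ± 0.135 TPM.

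In Pax5(-/-) cells Myc stood apart at 488 ± 45.3 TPM (SD, n = 2), followed by Mxd4 at 236 ± 42.6 and Max at 147 ± 5.85 TPM, none of which overlapped with the next. Mxd3, next to Myc in wild-type cells, here came after Mnt, and its libraries overlapped with those of Mnt, at 52.4 ± 6.43 against 61.0 ± 8.94 TPM. In Meox2-cre cells the 4 leading genes were those of wild-type cells, Mxd4 at 221 ± 21.0, Myc at 213 ± 49.0, Mxd3 at 179.9 ± 19.2 and Max at 166 ± 6.47 TPM (SD, n = 3), again with overlap between neighbours. Here Mlx at 52.7 ± 3.62 TPM stood before Mnt at 47.3 ± 0.753 TPM, without overlap.

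Sums within a library describe the balance between the activators and the repressors of the network at the transcript level. Summed over the 10 genes, the network took 774 to 955 TPM in wild-type, 1045 and 1047 TPM in Pax5(-/-) and 917 to 973 TPM in Meox2-cre libraries. Myc made up 25.5, 22.4 and 24.4% of this sum in wild-type and 49.7 and 43.6% in Pax5(-/-) libraries, while Mxd3 made up 23.6, 20.7 and 19.9% in wild-type and 4.57 and 5.45% in Pax5(-/-) libraries. The share of Myc was thus higher and that of Mxd3 lower in every Pax5(-/-) library than in any wild-type library.

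**Figure D3:**
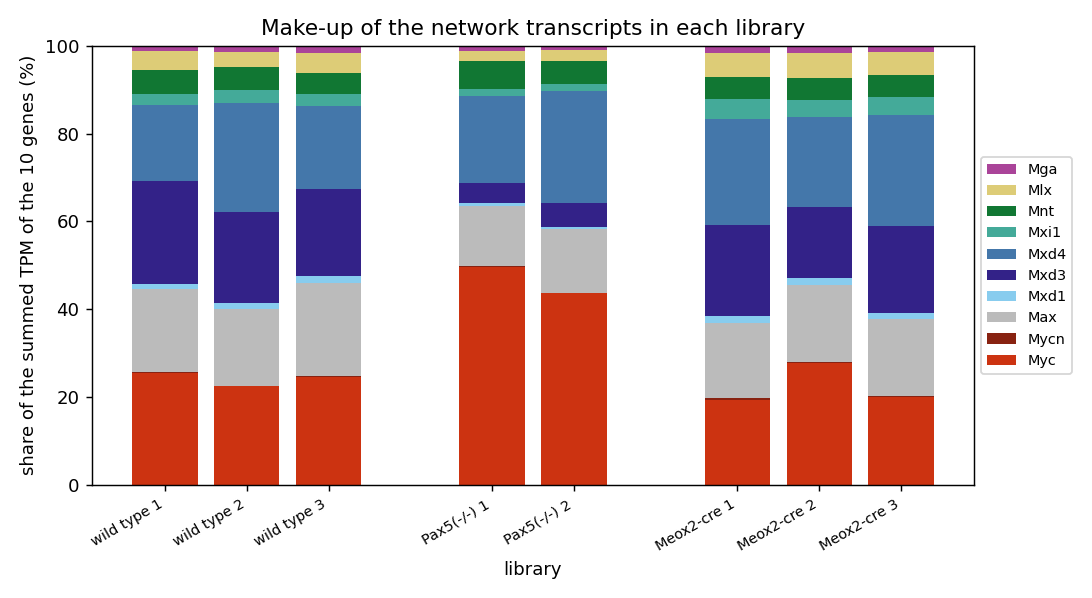
Share of each network gene in the summed TPM of the 10 genes (stacked bars, %) in each of the 8 libraries. Myc takes 43.6 and 49.7% in Pax5(-/-) libraries and 19.3 to 27.6% in all others, and Mxd3 takes 4.57 and 5.45% against 16.2 to 23.6%.

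The ratio of summed Myc and Mycn to summed Mxd1, Mxd3, Mxd4, Mxi1 and Mnt was 0.516, 0.409 and 0.514 in wild-type libraries and 1.51 and 1.14 in Pax5(-/-) libraries, that is below 1 in the former and above 1 in the latter. Meox2-cre libraries had 0.350, 0.591 and 0.365, all below 1. Without Mxd3 the ratio still lay below 1 in each wild-type library and above 1 in each Pax5(-/-) library, but the groups were closer, at 0.838 ± 0.168 (SD, n = 3) in wild-type and 1.54 ± 0.297 (SD, n = 2) in Pax5(-/-) cells. Among the summed Mxd transcripts, Mxd3 made up 46.9 ± 6.04% in wild-type and 16.8 ± 0.492% in Pax5(-/-) cells, and Mxd4 44.1 ± 5.51% and 75.3 ± 2.19%. Myc and Max transcripts stood at a ratio of 1.26 ± 0.0997 in wild-type, 1.28 ± 0.252 in Meox2-cre and 3.34 ± 0.442 in Pax5(-/-) cells. Transcript ratios say nothing about the amounts of the proteins, which were not measured.

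The genes whose profile over the 5 mm9 libraries lay nearest to a member were found by the Euclidean distance of their log2(TPM + 0.5) values, each taken relative to the gene's own wild-type mean, among 12065 other genes. Nearest to Myc were Anxa9 (distance 0.0393), Abca2 (0.0802) and Slc9a3r2 (0.0975), which encode an annexin, a lipid transporter and a scaffold protein and had log2 changes of 1.22, 1.20 and 1.26. Anxa9 and Slc9a3r2 were low, at 4.38 and 5.58 TPM in Pax5(-/-) cells, whereas Abca2 reached 60.8 TPM. Nearest to Mxd3 were Spib (0.149), which encodes an Ets factor of B cells, Hdac5 (0.182), which encodes a class II histone deacetylase, and Gsg1l (0.197), with log2 changes of -1.82, -1.75 and -1.74. Spib fell from 534 to 150.5 TPM and Hdac5 from 148 to 43.6 TPM, whereas Gsg1l was low in both genotypes, at 1.57 and 0.119 TPM. These distances rest on 5 libraries that share 1 contrast and carry no test.

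Genes that work with the network were examined as 8 lists, chosen by function with earlier results of these data known. Of their 89 tested genes, 25 were lower and 8 were higher in Pax5(-/-) cells, beside 21.5% and 15.6% of all genes tested (10 and 6 without Pax5(-/-) library 1, 5 and 5 without library 2), with a median log2 change of -0.17 against -0.12 over all genes tested.

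Of 16 genes of the Sin3 complex, the corepressor through which Mxd proteins and Mnt act, 7 were lower and 0 were higher, with a median of -0.37. These counts stand beside 21.5% and 15.6% of all genes tested. The largest changes were those of Arid4a (31.0 to 16.5 TPM, log2 change -0.87, adjusted p = 0.0088) and Brms1l (12.7 to 7.59 TPM, -0.71, adjusted p = 0.0157), which encode complex subunits. The scaffold Sin3a was lower at -0.51 (adjusted p = 0.0115), while the deacetylases Hdac1 (-0.24, adjusted p = 0.0972) and Hdac2 (-0.01, adjusted p = 0.974) did not pass. All 16 log2 changes were negative as deposited, as were those of 7161 of all 12066 genes tested. After rescaling by median ratios 13 of 16 were negative, and 3 passed. The calls were lost without Pax5(-/-) library 1 or 2, where far fewer of all genes passed. In these fits Arid4a was at -0.93 and -0.81 and Brms1l at -0.69 and -0.72. Without wild-type library 2 the count was 4, in a fit where 1958 of all genes were lower, against 2596 in the reported fit.

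Of 12 genes for Myc coactivators and for Miz1, a partner of Myc in repression, 1 was lower and 1 was higher, with a median of -0.14. These counts stand beside 21.5% and 15.6% of all genes tested. The histone acetyltransferase gene Kat2a rose from 109.9 to 149 TPM (log2 change 0.43, adjusted p = 0.0142). Actl6a, which encodes an actin-like subunit of chromatin complexes, fell from 164 to 125 TPM (-0.38, adjusted p = 0.0164). Neither passed without Pax5(-/-) library 1 (0.33 and -0.44, adjusted p = 0.135 and 0.0695) or 2 (0.53 and -0.33, adjusted p = 0.0515 and 0.147). Of 11 genes that control the stability of Myc protein, 4 were lower and 0 were higher, beside the same shares of all genes, with a median of -0.19. Cip2a, whose product protects Myc from a phosphatase, fell from 34.2 to 17.1 TPM (-0.96, adjusted p = 0.00522), and Skp2, which encodes a subunit of a ubiquitin ligase for Myc, fell from 47.7 to 25.0 TPM (-0.92, adjusted p = 0.00292). The other 2 that were lower were Aurka (-0.66) and Gsk3b (-0.59), named after their values were seen. Without Pax5(-/-) library 1 or 2, 2 or 1 of the 11 were lower: Cip2a did not pass in either case (-1.02 and -0.91, adjusted p = 0.0594 and 0.0868), and Skp2 did not without library 2 (-0.77, adjusted p = 0.0572). Fbxw7, which encodes the ligase subunit that recognises phosphorylated Myc, had a log2 change of -0.42 and did not pass (adjusted p = 0.246). Aurka, Skp2 and Cip2a are also known as genes of dividing cells.

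Of the 9 partners of Mga in its Polycomb complex, 2 were lower and 1 was higher, beside 21.5% and 15.6% of all genes tested, with a median of -0.19. Yaf2 (32.1 to 15.4 TPM, log2 change -1.04, adjusted p = 0.0013) and L3mbtl2 (59.6 to 38.1 TPM, -0.64, adjusted p = 0.00414) fell, and Pcgf6, the subunit that defines this complex, rose from 14.5 to 22.8 TPM (0.66, adjusted p = 0.0452). The call of Pcgf6 was lost without wild-type library 1 or 2 (0.50 and 0.63, adjusted p = 0.0666 and 0.112) or Pax5(-/-) library 1 or 2 (0.70 and 0.62, adjusted p = 0.204 and 0.277), and that of L3mbtl2 without Pax5(-/-) library 2 (-0.56, adjusted p = 0.0679).

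Textbook target genes of Myc were the list with a positive median among those of 5 or more genes. Of 25 genes, 0 were lower and 5 were higher, beside 21.5% and 15.6% of all genes tested. The median was 0.12 as deposited and 0.23 after rescaling by median ratios, where 8 were higher. Without wild-type library 3, 8 were higher and 1 was lower. The count of higher genes was 4 with eBayes without trend and 4 without wild-type library 2. Ccnd2, which encodes a D-type cyclin, rose from 86.9 to 294 TPM (log2 change 1.76, adjusted p = 0.000105). Apex1, which encodes a DNA repair enzyme, rose from 89.7 to 183 TPM (1.04, adjusted p = 0.00168). The mm9 entry of Apex1 carries the overlap mark, and the part of shared reads in its value was not tested. In Meox2-cre libraries, made with other software, Apex1 had 215, 257 and 202 TPM, above both Pax5(-/-) libraries. The other 3 that rose were Tfap4 (0.85), Cdk4 (0.62) and Shmt2 (0.52), named after their values were seen. The classic targets Odc1 (-0.03, adjusted p = 0.87), Ncl (-0.08, adjusted p = 0.708) and Cad (0.17, adjusted p = 0.363) did not pass. Tfrc had a negative log2 change of -0.95 that did not pass (adjusted p = 0.0732).

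**Figure D4:**
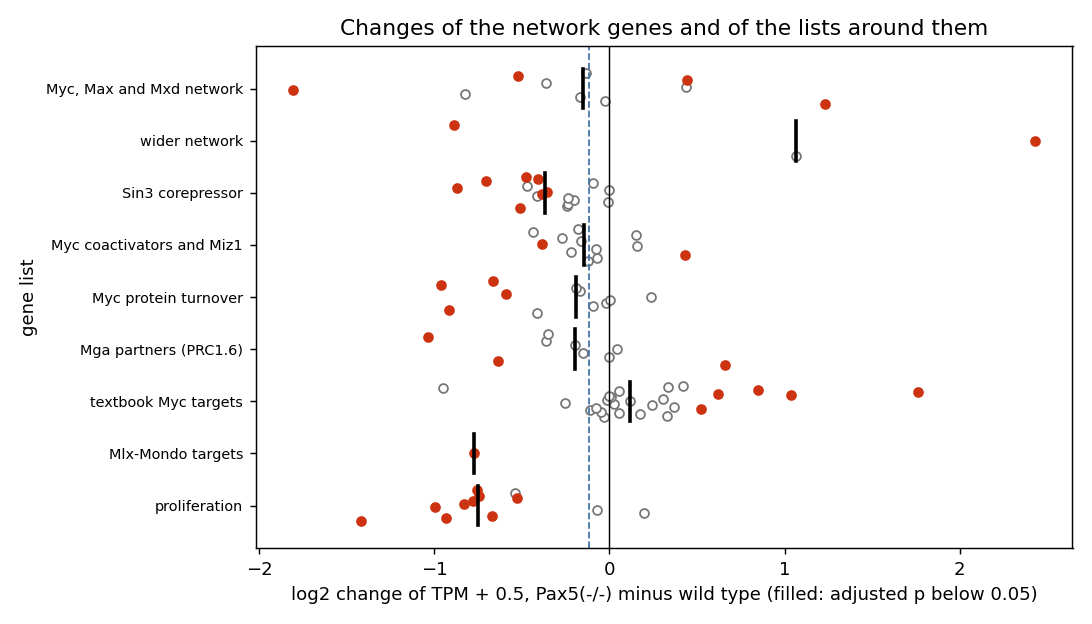
Log2 change of TPM + 0.5 between Pax5(-/-) and wild-type cells for each tested gene (points, filled where the adjusted p-value is below 0.05) of the network and of 8 lists of genes that work with it, with the median of each list (black line) and of all genes tested (dashed line, -0.12). The 25 textbook Myc targets have a median of 0.12 and the 12 proliferation genes a median of -0.75.

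Of 12 proliferation genes, 9 were lower and 0 were higher, beside 21.5% and 15.6% of all genes tested, with a median log2 change of -0.75. The other 3, named after their values were seen, did not pass: Bub1 (-0.54, adjusted p = 0.0614), Mcm5 (-0.07, adjusted p = 0.65) and Mcm2 (0.20, adjusted p = 0.253). Mki67, a marker of dividing cells, fell from 229.7 to 84.1 TPM (-1.42, adjusted p = 0.00406), and Ccna2, which encodes cyclin A2, fell from 299 to 149.7 TPM (-0.997, adjusted p = 0.000187). Without Pax5(-/-) library 2, 3 of the 12 were lower and Mki67 did not pass (-1.18, adjusted p = 0.0827). The summed level of the 12 genes was 3533 to 4009 TPM in wild-type, 3738 to 3857 TPM in Meox2-cre and 2465 and 2736 TPM in Pax5(-/-) libraries, without overlap. Its part in the lower level of Mxd3, Skp2, Cip2a and Aurka was not tested.

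**Figure D5:**
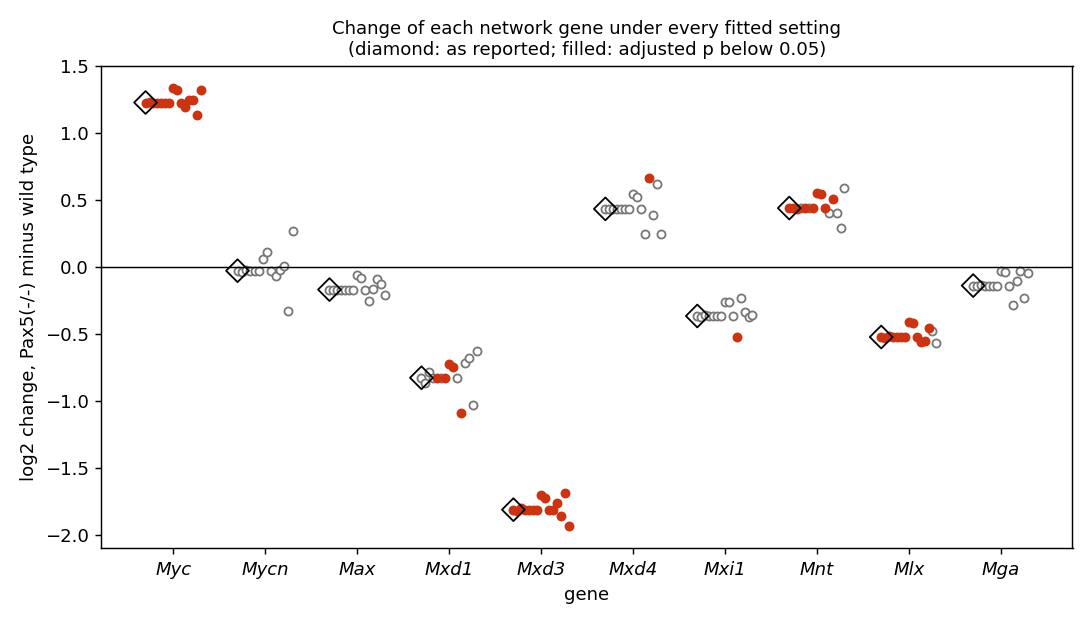
Log2 change of each network gene between Pax5(-/-) and wild-type cells in the reported fit (diamond) and in 14 others that change the pseudocount, filter, variance prior or scaling or leave out 1 library, with filled points where the adjusted p-value is below 0.05. Myc, from 1.13 to 1.34, and Mxd3, from -1.93 to -1.68, are filled in all 15, whereas Mnt is filled in 9 and Mlx in 13.

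Over the 15 fits, Myc ranged from 1.13 to 1.34 and Mxd3 from -1.93 to -1.68 on the log2 scale, and both passed in each. Mlx passed in 13, Mnt in 9, Mxd1 in 5, and Mxd4 and Mxi1 in 1 each. Mycn, Max and Mga passed in none of the fits in which they were tested, and Mycn was the only member whose sign changed.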

How the data were processed

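RNA from sorted cells was sequenced after poly(A) selection, and the authors removed reads of ribosomal RNA. Reads of wild-type and Pax5(-/-) cells were mapped by the authors to mm9 (TopHat 1.4.1a) and assigned to a modified refGene annotation (featureCounts 1.5.0, default settings), and those of Meox2-cre cells to mm10 (STAR 2.4.2a, featureCounts 1.5.0). The deposited values are TPM, which the authors calculated from these reads and gene lengths.

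The contrast of Pax5(-/-) with wild type was fitted in limma 3.58.1 (R 4.3.3; lmFit, then eBayes with its trend option) to log2(TPM + 0.5) with genotype as the only term. Tested were genes averaging over 1 TPM in either genotype, with the Benjamini-Hochberg adjustment over all of them. With 3 against 2 libraries an exact permutation test cannot go below p = 0.1, so none is given. Meox2-cre libraries, made with other software, were described only. The members and gene lists were chosen with earlier results of these data known. Named were the 10 members, from each list the 2 genes that changed most in each direction and passed, every gene of a list of 4 or fewer, the 3 genes nearest in profile to Myc and to Mxd3, and Pax5; Prelid1, Psmc3ip, Gm10197, Sin3a, Hdac1, Hdac2, Fbxw7, Aurka, Gsk3b, Tfap4, Cdk4, Shmt2, Odc1, Ncl, Cad, Tfrc, Bub1, Mcm2, Mcm5 and the marker genes named were added after values were seen. Markers of other cell types were summed, and those of later B cells had sums of 5.58 to 8.04 TPM in wild-type and 4.30 and 5.77 TPM in Pax5(-/-) libraries. Within these sums Il2ra was higher (1.02 to 4.52 TPM, log2 change 1.71, adjusted p = 0.002) and Ms4a1 lower (4.89 to 0.283 TPM, -2.755, adjusted p = 0.00036). Ms4a1 passed the filter on low values only through wild-type cells, where it was high. Alternatives were pseudocounts of 0.1 and 1, no filter or 5 TPM, eBayes without trend or robust, median ratios, quantile normalization, removal of immunoglobulin and T cell receptor genes, the log2 ratio of mean TPM, and leaving out each library. Gene positions are those of GENCODE on mm9, promoters those of RefSeq on GRCm38.p6. Among the list genes named, the mm9 entries of Apex1, Cad, Ccna2, Fbxw7, Gsk3b, L3mbtl2, Shmt2 and Txnip also carry the overlap mark. Their overlaps were not examined. The ChIP-seq samples are not analysed here, and 1 marker gene is not reported here. Tables and figures were made with Python 3.11.15, numpy 2.4.6, pandas 2.3.3 and matplotlib 3.10.9.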

Additional observations from a re-analysis of the deposited data

How the results depend on the processing

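Myc and Mxd3 kept their direction and passed in all 15 fits, and Max and Mga kept their direction without passing. Mycn changed sign under median ratios (0.061), quantile normalization (0.11) and the log2 ratio of mean TPM (0.0045), and over the fits that left out 1 library it ranged from -0.32 to 0.27. The count of members that were lower was 2, and from 1 to 4 when 1 library was left out, with 4 without wild-type library 1 and 1 without either Pax5(-/-) library. The count of members that were higher was 2, and 1 without the filter on low values, 1 with eBayes without trend and from 1 to 3 when 1 library was left out. With the study's thresholds 0 members were higher, and 1 at 2-fold. Of the genes of all lists, 25 were lower, and from 5 to 30 when 1 library was left out, and 8 were higher, with 13 under quantile normalization and from 5 to 11 when 1 library was left out. Taking Mxd3 out of the ratio of activators to repressors changed it from 0.480 to 0.838 in wild-type and from 0.435 to 0.675 in Meox2-cre cells. The causes were not tested, except that leaving out a library removes a sample. Without a Pax5(-/-) library 1 remains, which is assumed to vary like the others. No paired analysis was possible because no sample label gives a replicate number.

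The depth in reads is unknown, so no floor was set. Among the members the SE of the log2 change was largest for Mxd1 (0.28) and Mycn (0.27).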
